A study of Mus musculus with 8 samples.

Results

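The nuclear genes for the subunits of the mitochondrial respiratory chain and ATP synthase (complexes I to V) were followed across 8 RNA-seq libraries of mouse brain neural progenitor cells. Genes were taken by their symbols: Nduf a, b, c, s or v with a number for complex I, Sdha to Sdhd for complex II, Uqcr and Cyc1 for complex III, Cox4 to Cox8 for complex IV and Atp5 for complex V. Of 20793 rows in the expression table, 84 carried such a symbol, and 81 of them reached 1 FPKM (sequenced fragments scaled to transcript length and to the library's total) in 2 or more libraries. The 81 were 36 genes of complex I, 4 of complex II, 9 of complex III, 15 of complex IV and 17 of complex V. Cox4i2, Cox7b2 and Cox8c stayed under that level. In 75 of the 81 genes every library held at least 10 FPKM, and only 1 gene, Cox6a2, owed its place to a single state, the proliferating one.

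The cells came from brains of FvB/C57BL/6 mice and carried lentiviral hairpins that targeted FUBP1, targeted CIC or were non-targeted (NT). The labels give 3 days of puromycin selection for every library, in wording that names infection with the FUBP1 hairpins. Proliferating cells grew in N2 medium with EGF and bFGF at 20 ng/ml. Differentiating cells were held for 5 days in neurobasal medium with B27. The proliferating libraries were TRC and GFP (both NT), FUBP1 and CIC, and the differentiating ones were 7 and GFP-D (both NT), FUBP1-D and CIC-D. Each hairpin target had 1 library in each state. The labels do not state whether NT libraries of a state were separate cultures, and the spread behind each p-value may therefore be technical. In bulk RNA, fewer cells of a type and less RNA per cell cannot be told apart.

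The respiratory chain passes electrons from NADH (complex I) and succinate (complex II) through ubiquinone to complex III, then by cytochrome c to complex IV, which reduces oxygen. Complexes I, III and IV pump protons across the inner membrane, and ATP synthase (complex V) makes ATP from the returning flow. Some core subunits are encoded in mitochondrial DNA and the others in the nucleus, and neural progenitors are known to draw on glycolysis as well as on respiration. The mitochondrially encoded subunits were not analysed here.

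Values below are in the order TRC, GFP, FUBP1, CIC for the proliferating state and 7, GFP-D, FUBP1-D, CIC-D for the differentiating state. Summed FPKM over the whole table ran from 505977 to 541608 in the proliferating libraries and from 426984 to 448571 in the differentiating ones. The main fit did not rescale the libraries for this difference. Sequencing depth is unknown because the table holds no counts. Cic stood at 13.3 FPKM in CIC against 33.8 to 49.5 in the other proliferating libraries, and at 25.6 in CIC-D against 32.1 to 42.0. Fubp1 stood at 34.8 FPKM in the library labelled FUBP1, between 50.2 in TRC and 12.4 in GFP, and at 21.6 in FUBP1-D against 24.8 to 26.9. The Fubp1 transcript thus does not separate the proliferating library labelled FUBP1 from the NT libraries. Progenitor markers summed to 2915 to 5055 FPKM over the 8 libraries, of which Vim alone held 1666 to 3842, and single markers went opposite ways. Fabp7 ran from 1002 to 2493 FPKM in the proliferating and from 98.9 to 619 in the differentiating libraries. Msi1 ran from 12.4 to 26.3 FPKM in the proliferating and from 40.6 to 53.3 in the differentiating libraries. Among 6 neuronal markers, Rbfox3, Dcx, Syt1 and Snap25 stayed under 1 FPKM in all 8 libraries, Tubb3 reached 3.68 and Map2 ran from 27.6 to 58.5. Microglial, endothelial and striated muscle markers each summed to under 1 FPKM.

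The subunit genes were lower in the differentiating libraries across all 5 complexes. As a share of all FPKM in the table, the 81 genes held 4.58%, 3.83%, 4.63% and 5.07% in the proliferating libraries, and 2.83%, 3.07%, 3.03% and 3.50% in the differentiating ones. Every differentiating library lay below every proliferating library. With state and hairpin target fitted together in limma on log2(FPKM + 1), 53 of the 81 genes were lower and 2 were higher at a Benjamini-Hochberg adjusted p under 0.05, and 75 of the 81 estimates were negative. Among all 11968 genes kept, 17.7% were lower and 21.2% higher, and 5480 estimates were negative. The median log2 change was -0.70 for the subunit genes and 0.09 for all genes.

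Most subunit genes are highly expressed, and among the 1866 genes with a mean of at least 50 FPKM, a level chosen after the data were seen, 35.7% were lower, with a median log2 change of -0.30. Of the 73 subunit genes at that level, 52 were lower, with a median of -0.72. Estimates were negative in 71 of these 73 genes and in 1177 of the 1866. Without any test, the 4 differentiating values lay below all 4 proliferating values in 51 of the 81 genes, against 17.8% of all genes kept. They lay above them in 2 genes, and the states overlapped in the other 28. The call count depended on scaling: quantile normalization left 25 genes lower, with a median log2 change of -0.41, while 18.5% of all genes were lower, and median-of-ratios rescaling gave 61, with 20.7% of all genes. The count was 30 with a mean for each of the 6 groups (11.1% of all genes), 34 with a block for libraries that share a name (13.1%), and 29 without FUBP1 (9.66%) or without FUBP1-D (9.75%).

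**Figure D1:**
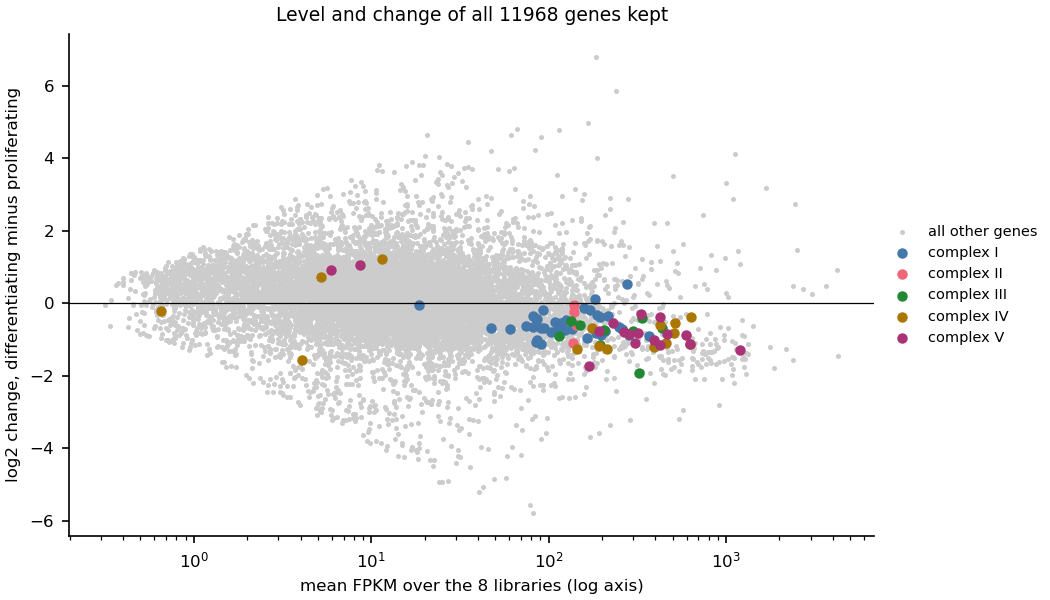
Log2 change between the states (vertical axis) against the mean FPKM over the 8 libraries (horizontal log axis) for the 11968 genes kept, with the 81 subunit genes coloured by complex. Most coloured points lie right of 50 FPKM and below 0.

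Averaged over the genes of each complex, the mean log2(FPKM + 1) of complex I was 7.17, 7.10, 7.21 and 7.33 in the proliferating libraries and 6.45, 6.62, 6.63 and 6.85 in the differentiating ones. Complex V went from 8.24, 7.93, 8.20 and 8.09 to 7.36, 7.40, 7.39 and 7.58. The states did not overlap for complexes I, III, IV and V, while for complex II the CIC-D value of 7.06 lay above the GFP value of 7.03. The difference of the state means was -0.57 for complex I, -0.49 for II, -0.85 for III, -0.67 for IV and -0.68 for V. The mean of V includes Atp5s (1.05) and Atp5sl (0.91), which are not structural subunits, as described below. That of IV includes the low isoforms Cox6a2 (-1.56), Cox7a1 (1.21), Cox6b2 (0.73) and Cox8b (-0.23). The order of the complexes by these means is therefore not read as a result. The median gene kept 62.1% of its proliferating mean FPKM in complex I, 74.9% in II, 59.4% in III, 58.2% in IV and 55.4% in V. These complex averages were not tested.

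**Figure D2:**
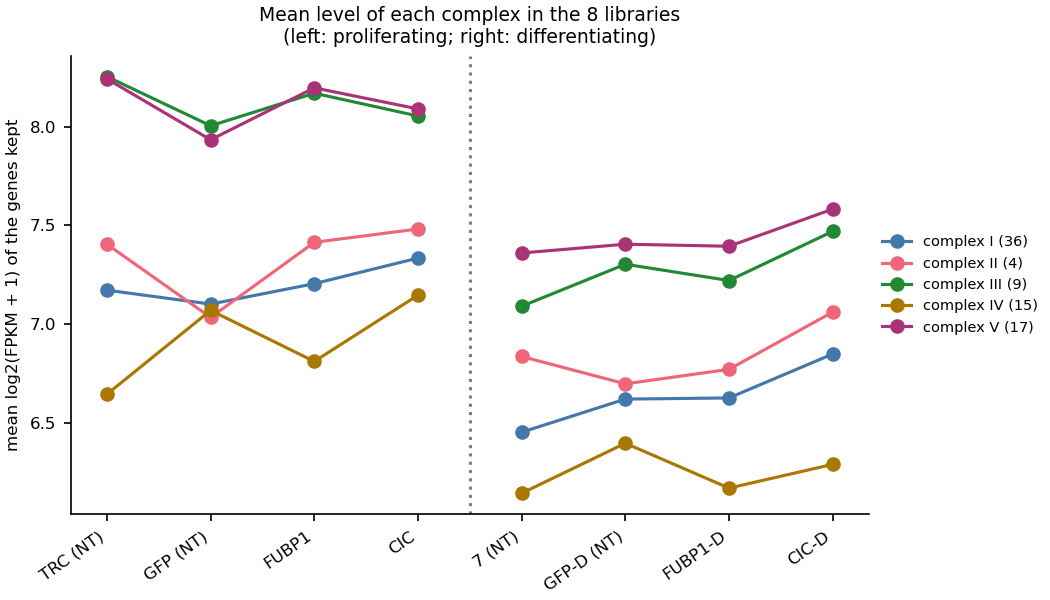
Mean log2(FPKM + 1) over the genes kept of each complex (vertical axis) in each of the 8 libraries (horizontal axis), with the number of genes in brackets and the dotted line between the states. In complexes I, III, IV and V every differentiating library lies below every proliferating one.

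Complex I oxidises NADH in a peripheral arm built from core flavin and iron-sulfur subunits, with many accessory subunits around it. Of its 36 genes, 22 fell and none rose, with a median log2 change of -0.66. The peripheral core subunits were not alike in their values. Ndufv2, an iron-sulfur subunit next to the flavin, read 114, 89.5, 113 and 144 FPKM in the proliferating libraries and 48.3, 51.5, 56.9 and 60.8 in the differentiating ones, a log2 change of -1.05 ± 0.15 (SE, limma adjusted p = 0.00284). No differentiating value came near the proliferating ones. Ndufs1, the large iron-sulfur subunit at the entry of the electron path, fell from 75.0 ± 10.6 to 45.5 ± 5.24 FPKM (SD, n = 4 libraries each). Ndufs3 fell from 156 ± 42.5 to 92.5 ± 11.5 FPKM, and its value of 219 in CIC was well above the 123 to 143 of the other proliferating libraries. Ndufs8, which carries 2 iron-sulfur clusters, fell by 0.68 on the log2 scale, although its 81.7 in CIC-D just overlapped the 81.1 of GFP. Its call was lost in 9 of 18 alternatives (limma adjusted p up to 0.096) and that of Ndufs1 in 4.

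The core subunits Ndufs7 and Ndufv1 did not pass the test in the additive fit. Ndufs7, which holds the terminal iron-sulfur cluster, read 205, 161, 167 and 130 FPKM and then 129, 172, 128 and 172, with an estimate of -0.14 that became 0.080 under quantile normalization and 0.038 with the block for shared names. Ndufv1, the subunit that binds NADH and the flavin, read 90.5 to 105 FPKM in the proliferating libraries and 53.6, 79.0, 66.9 and 91.2 in the differentiating ones, an estimate of -0.43 ± 0.18 (limma adjusted p = 0.087). CIC-D was the only differentiating library inside the proliferating range of Ndufv1. Median-of-ratios rescaling called Ndufv1 lower (-0.54, limma adjusted p = 0.0495).

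Beside Ndufv2, the largest falls in complex I were in accessory subunits of the membrane arm. Ndufb2 read 119, 106, 132 and 134 FPKM and then 51.6, 43.1, 59.0 and 75.3, a log2 change of -1.11 ± 0.16 (limma adjusted p = 0.00252). Ndufb5 read 123, 93.8, 119 and 124 FPKM and then 54.7, 51.5, 64.3 and 56.7 (limma adjusted p = 0.00346). Neither gene had any overlap between the states. Ndufa11, an accessory membrane subunit, was the least abundant gene of the complex and read 18.9, 18.2, 19.1 and 19.4 FPKM and then 14.5, 19.8, 17.2 and 22.5. Its estimate was -0.05 ± 0.17, and the 4 differentiating libraries lay on both sides of the proliferating ones. The 2 positive estimates of complex I were those of Ndufa7 (0.13) and Ndufa6 (0.53 ± 0.30, limma adjusted p = 0.19), both named here after their values were seen. Ndufa6 read 164, 345, 157 and 234 FPKM and then 354, 217, 241 and 491, so that its NT libraries alone spanned most of the range, and it was called higher under quantile normalization (0.98) and without GFP (0.81).

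Ndufa4, grouped with complex I by its symbol, is now known as a subunit of complex IV. It was the most abundant gene of the group in the proliferating libraries and fell from 477 ± 74.8 to 255 ± 31.9 FPKM (SD, n = 4 each), a log2 change of -0.90 ± 0.16 (limma adjusted p = 0.00601) that was -0.43 and not called under quantile normalization. Its paralogue Ndufa4l2, which replaces it in some cells at low oxygen, stayed between 0 and 0.383 FPKM in all 8 libraries.

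**Figure D3:**
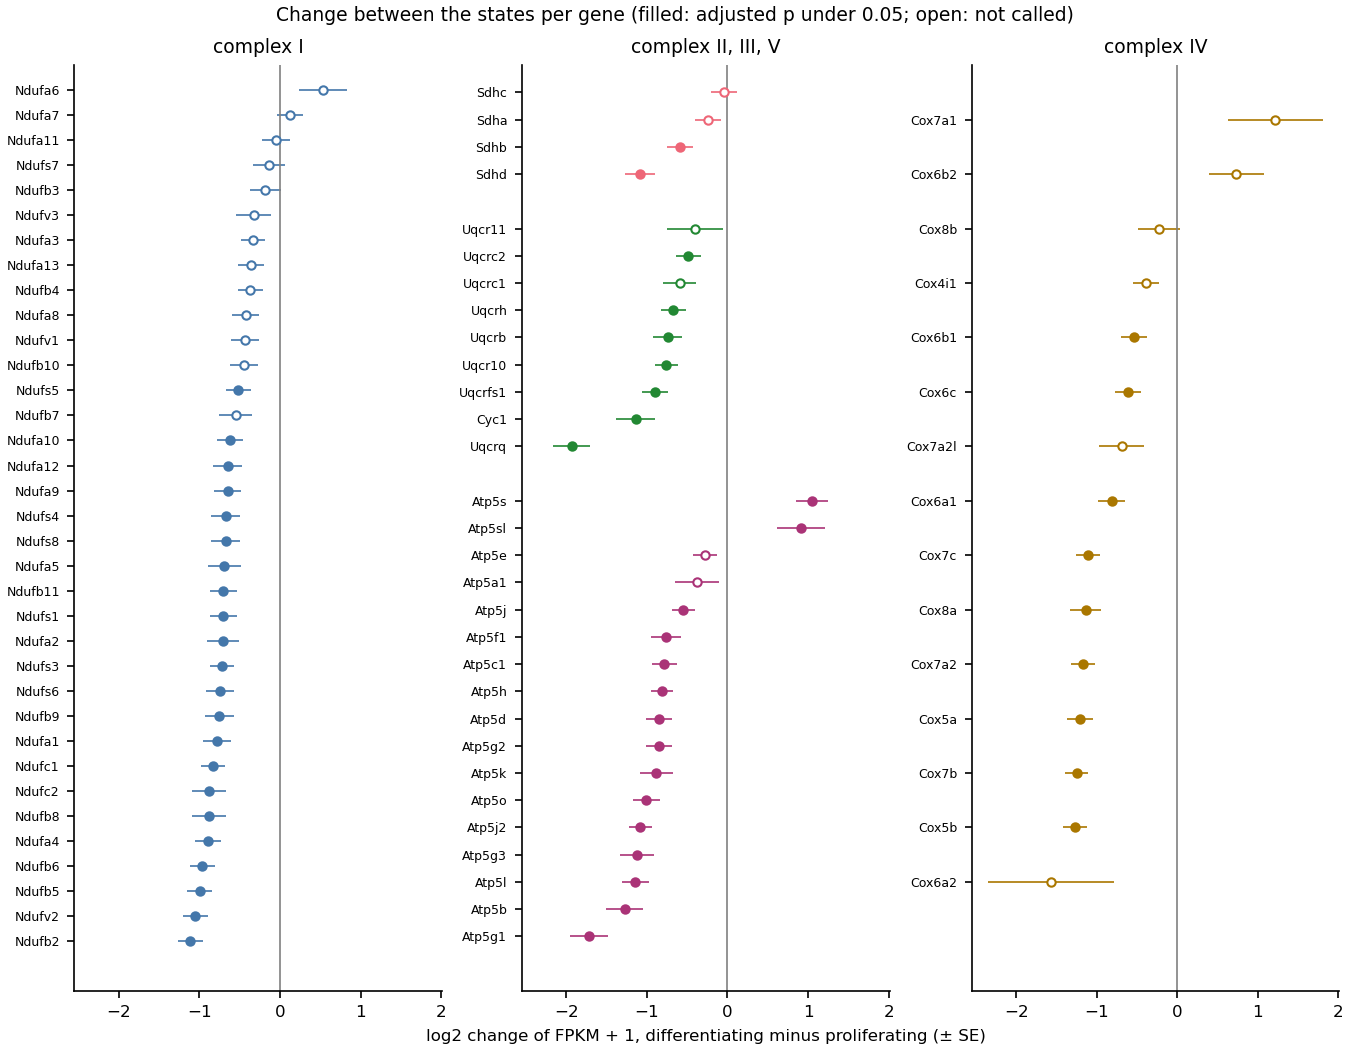
Log2 change of FPKM + 1 between the states per gene (horizontal axis, limma estimate with bars of 1 SE), in 3 panels by complex, filled where the adjusted p was under 0.05, with 1 gene not drawn. The filled points to the right of 0 are Atp5s and Atp5sl, and open points include Sdhc, Sdha and the tissue isoforms of complex IV.

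Complex II has no mitochondrially encoded subunit and also serves as succinate dehydrogenase in the citric acid cycle. Of its 4 genes, the membrane anchor Sdhd and the iron-sulfur subunit Sdhb fell, while the flavoprotein Sdha and the other anchor Sdhc were not called. Sdhd read 212, 150, 201 and 182 FPKM and then 95.5, 70.5, 80.7 and 103, a log2 change of -1.09 ± 0.19 (limma adjusted p = 0.00522) with no overlap of the states. Sdhc, which pairs with Sdhd to hold heme and ubiquinone, read 141, 125, 150 and 153 FPKM and then 154, 125, 121 and 152. The Sdhc ranges coincided, and its estimate of -0.04 ± 0.16 turned to 0.17 under quantile normalization. The difference between Sdhd and Sdhc was not tested. Sdha read 157, 116, 153 and 180 FPKM and then 118, 125, 130 and 132, an estimate of -0.25 ± 0.16 (limma adjusted p = 0.26), where GFP was the only proliferating library not above the differentiating ones. Sdhb fell from 171 ± 28.7 to 114 ± 24.3 FPKM, with CIC-D (149) above GFP (131), and its call was lost in 8 of 18 alternatives (limma adjusted p up to 0.11).

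Complex III moves electrons from ubiquinol to cytochrome c, and 7 of its 9 genes fell. The largest fall among all 81 genes was in Uqcrq, a small subunit next to the mitochondrially encoded cytochrome b. Uqcrq (chr11:53242449-53244333 on mm9) read 366, 520, 378 and 791 FPKM and then 87.2, 152, 114 and 174, which was 25.6% of its proliferating mean. Its log2 change was -1.93 ± 0.23 (limma adjusted p = 0.00141), and even the lowest proliferating library was above the highest differentiating one. Cyc1, the heme subunit cytochrome c1, read 325, 188, 328 and 240 FPKM and then 94.3, 130, 108 and 150, a log2 change of -1.14 ± 0.24 (limma adjusted p = 0.0108). Uqcrfs1, the Rieske iron-sulfur protein, fell from 150 ± 18.2 to 79.8 ± 8.87 FPKM.

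The core proteins Uqcrc1 and Uqcrc2, which carry no redox group, had smaller estimates than most genes of complex III. Uqcrc2 read 177, 171, 117 and 165 FPKM and then 109, 126, 102 and 106, a log2 change of -0.49 (limma adjusted p = 0.0406). FUBP1 was the only proliferating library in its differentiating range, and the call was lost in 12 of 18 alternatives (limma adjusted p up to 0.18). Uqcrc1 was not called (-0.59 ± 0.20, limma adjusted p = 0.0547) and became so without GFP (adjusted p = 0.0243). Uqcrc1 was also called lower with median-of-ratios rescaling (limma adjusted p = 0.0341) and with state alone (limma adjusted p = 0.0374). Uqcr11, the smallest subunit of the complex, read 590, 373, 503 and 145 FPKM and then 208, 306, 297 and 278, with CIC below all 7 other libraries. Its estimate of -0.40 ± 0.35 turned to 0.061 under quantile normalization.

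Complex IV is built around 3 catalytic subunits made in mitochondria, and its nuclear subunits include pairs of ubiquitous and tissue-restricted isoforms. Of 15 genes kept, 9 fell and none rose. Cox7b read 204, 194, 204 and 214 FPKM and then 83.1, 76.4, 84.9 and 97.7, a log2 change of -1.25 ± 0.14 (limma adjusted p = 0.00121). The spread among libraries of a state was small beside this difference, and Cox7b had the smallest adjusted p of the 81 genes. Cox5b, a zinc-binding subunit, read 297, 256, 294 and 358 FPKM and then 99.2, 120, 126 and 155, a log2 change of -1.27 ± 0.15. Cox5a fell by 1.20, from 467, 418, 510 and 807 FPKM to 206, 233, 204 and 287, with CIC highest. Both genes kept the states apart in all 8 libraries. Cox4i1, the subunit known as a regulatory site for ATP, read 619, 805, 613 and 829 FPKM and then 497, 554, 488 and 647. Its estimate was -0.39 ± 0.16 (limma adjusted p = 0.0946) and turned to 0.41 under quantile normalization. Median-of-ratios rescaling instead called Cox4i1 lower (-0.49, limma adjusted p = 0.0443).

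The isoforms known from heart and skeletal muscle, Cox6a2, Cox7a1 and Cox8b, and the testis isoform Cox6b2 were low and uneven, and none of them passed the test between the states in the additive fit. Cox7a1 (chr7:30969189-30971049 on mm9) read 2.69, 12.7, 6.40 and 1.82 FPKM and then 9.20, 45.1, 7.52 and 6.61, an estimate of 1.21 ± 0.59 (limma adjusted p = 0.137). GFP-D alone was above 12.7, and without it the estimate was 0.70. With the block for shared names, Cox7a1 was called higher (1.13, limma adjusted p = 0.0434) and Cox6a2 lower (-2.10, limma adjusted p = 0.0445). Cox6a2 was also called lower without TRC (limma adjusted p = 0.0376), and Cox6b2 was called higher without GFP (limma adjusted p = 0.0225). Cox6a2 was kept only through GFP and CIC, both proliferating, so its lower calls are not independent of the filter. Of the summed FPKM of the COX7A genes, Cox7a1 held 0.611%, 2.12%, 1.46% and 0.364% in the proliferating libraries and 3.37%, 16.6%, 2.75% and 2.56% in the differentiating ones. The share of Cox7a1 was thus higher in every differentiating library than in any proliferating one, while its FPKM overlapped.

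Cox7a2, the ubiquitous isoform, read 277, 254, 266 and 273 FPKM and then 113, 105, 110 and 150, a log2 change of -1.17 ± 0.15 (limma adjusted p = 0.00193). Cox7a2l, known for joining complexes III and IV in supercomplexes, read 161, 332, 165 and 226 FPKM and then 151, 122, 155 and 102, an estimate of -0.69 ± 0.28 (limma adjusted p = 0.0828). Its TRC and FUBP1 values lay just above the differentiating ones. The ubiquitous forms Cox6a1, Cox6b1 and Cox8a fell, by 0.82, 0.54 and 1.14 on the log2 scale, although none of them was called under quantile normalization, where the estimates were -0.17, 0.17 and -0.40. The Cox6b1 call was lost in 11 of 18 alternatives, that of Cox6a1 in 3 and that of Cox8a in 1. In every library Cox6a1 held at least 97.3% of the COX6A FPKM, Cox6b1 at least 97.6% of COX6B and Cox8a at least 99.4% of COX8. Cox4i2, the hypoxia-associated isoform of Cox4i1, never exceeded 0.0587 FPKM, and Cox7b2 was listed at 0 in all 8 libraries.

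**Figure D4:**
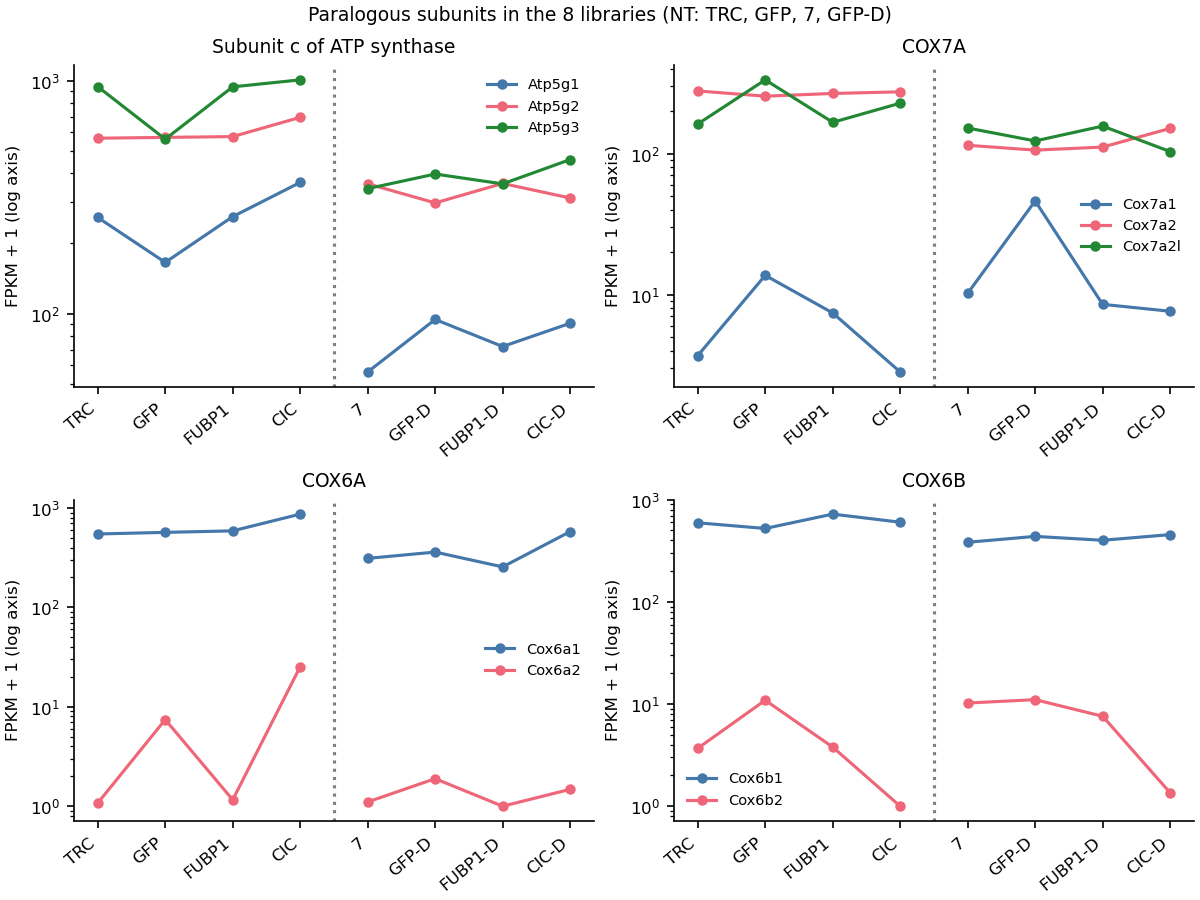
FPKM + 1 (vertical log axes) of paralogous subunit genes in the 8 libraries (horizontal axes), with the dotted line between the states. Atp5g1 drops most among the subunit c genes, Cox7a1 peaks at 45.1 FPKM in GFP-D, and Cox6b2 is at or near 0 FPKM in CIC and CIC-D.

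ATP synthase joins a catalytic head (F1), where the alpha and beta subunits surround a rotating stalk, to a membrane part (Fo) with a ring of c subunits. Of its 17 genes, 13 fell and 2 rose, with a median log2 change of -0.85. Atp5b, the catalytic beta subunit and the most abundant of the 81 genes, read 1904, 1017, 1900 and 2075 FPKM and then 602, 689, 640 and 831. The log2 change was -1.28 ± 0.23 (limma adjusted p = 0.00605), and GFP was far below the other 3 proliferating libraries. Atp5a1, the alpha subunit present in equal number in the head, read 660, 349, 636 and 326 FPKM and then 337, 384, 328 and 390. Here GFP lay in the differentiating range and CIC just below it, and the estimate of -0.38 ± 0.27 (limma adjusted p = 0.288) turned to 0.22 under quantile normalization. Among the stalk subunits, Atp5c1 (gamma) fell from 338 ± 18.8 to 196 ± 19.2 FPKM, and Atp5o, the oligomycin-sensitivity subunit that ties head to stator, fell from 529 ± 140 to 257 ± 18.5 (SD, n = 4 each). Atp5l, a membrane subunit found at the dimer interface, fell by 1.14 on the log2 scale (limma adjusted p = 0.00284).

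Atp5g1, Atp5g2 and Atp5g3 encode the same mature c subunit with different import sequences. Atp5g1 (chr11:95934106-95937008 on mm9) read 258, 165, 260 and 365 FPKM and then 55.1, 93.3, 71.2 and 89.8, a log2 change of -1.72 ± 0.24 (limma adjusted p = 0.0023). This was 29.6% of its proliferating mean. Atp5g2 read 565, 570, 574 and 695 FPKM and then 360, 298, 361 and 313, a log2 change of -0.85, and Atp5g3 read 942, 560, 940 and 1008 and then 343, 396, 360 and 457, a log2 change of -1.12. All 3 genes kept the states apart. Under quantile normalization Atp5g1 was still called, while Atp5g2 (-0.27, limma adjusted p = 0.29), Atp5g3 (-0.40, limma adjusted p = 0.17) and Atp5b (-0.70, limma adjusted p = 0.14) were not. The sum of the subunit c genes went from 1765, 1295, 1775 and 2067 FPKM to 758, 787, 792 and 860. Atp5g1 supplied 14.6%, 12.7%, 14.6% and 17.7% of that sum in the proliferating libraries and 7.27%, 11.9%, 8.99% and 10.4% in the differentiating ones, without overlap.

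The 2 genes that rose carry ATP synthase symbols but are not structural subunits of it. Atp5s, listed by RefSeq as Dmac2l, read 5.82, 6.33, 4.89 and 4.22 FPKM and then 12.8, 10.9, 10.2 and 14.3, a log2 change of 1.05 ± 0.20 (limma adjusted p = 0.00637). Atp5sl, listed as Dmac2 and known from complex I assembly, read 4.71, 5.57, 4.59 and 1.27 FPKM and then 9.45, 6.89, 6.92 and 8.12, a log2 change of 0.91 ± 0.30 (limma adjusted p = 0.0442). Neither gene had overlapping states. The Atp5sl call was lost in 12 of 18 alternatives, among them without TRC, FUBP1, CIC, 7, FUBP1-D or CIC-D and under both rescalings. The limma adjusted p lay between 0.051 and 0.10 in those 12.

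Promoter sequence was taken from a table of RefSeq promoters (GRCm38.p6), in which 68 of the 81 genes were matched. Genes not matched included Atp5a1, Cyc1, Uqcrc2, Ndufs1, Cox6a2, Ndufa2, Ndufb9, Uqcrb, Sdhc, Cox4i1, Uqcrq and Cox6c. The window of 250 bases before to 50 after the start was searched on both strands for the core motifs of NRF1 (GCGCNTGCGC), of ETS factors such as GABPA (CCGGAAG) and of YY1 (AAGATGGC), regulators known for nuclear genes of respiration. NRF1 letters were found in 17 of 68 genes (25%), against 5.19% of all 27025 genes in the table and 11.9% of the 9006 that were also kept here. ETS letters were found in 23.5%, against 9.93% and 20.2%, and YY1 letters in 16.2%, against 3.19% and 5.41%. Matches of different motifs overlapped in 0 of the 74 promoters of these genes. Among the 45 matched genes called lower and the 23 others, NRF1 letters stood in 11 and 6, ETS letters in 13 and 3, and YY1 letters in 8 and 3. Genes of 1 complex differed in these letters, as the 120 bases before the start show for the subunit c genes and for the catalytic and anchor genes of complex II. Capitals mark motif matches on either strand.
Atp5g1, chr11:96075632-96075751, minus strand: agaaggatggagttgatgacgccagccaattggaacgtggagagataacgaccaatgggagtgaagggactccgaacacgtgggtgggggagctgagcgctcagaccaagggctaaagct
Atp5g2, chr15:102671048-102671167, minus strand: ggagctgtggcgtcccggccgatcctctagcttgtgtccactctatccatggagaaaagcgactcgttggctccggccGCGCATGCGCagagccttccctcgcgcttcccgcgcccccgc
Atp5g3, chr2:73911327-73911446, minus strand: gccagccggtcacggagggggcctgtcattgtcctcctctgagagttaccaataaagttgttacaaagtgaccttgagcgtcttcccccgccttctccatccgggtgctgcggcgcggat
Sdha, chr13:74350241-74350360, minus strand: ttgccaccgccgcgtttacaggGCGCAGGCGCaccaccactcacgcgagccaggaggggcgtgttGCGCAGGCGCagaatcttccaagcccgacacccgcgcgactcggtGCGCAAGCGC
Sdhd, chr9:50603850-50603969, minus strand: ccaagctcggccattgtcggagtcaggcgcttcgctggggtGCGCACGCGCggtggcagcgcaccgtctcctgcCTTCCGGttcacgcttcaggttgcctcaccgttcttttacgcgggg
In these 120 bases, Atp5g2 had an NRF1 match from 42 to 33 bases before the start, Atp5g1 and Atp5g3 had none of the 3 motifs, and Atp5g3 had an NRF1 match 12 to 21 bases after the start, outside the printed stretch. Sdha, which was not called, had 3 NRF1 matches, and Sdhd, which fell, had 1 NRF1 and 1 ETS match. The letters are a description of sequence, not of factor binding.

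Other genes of mitochondrial function were read from lists chosen with earlier results of these data known, beside the 17.7% of all genes and 35.7% of genes of at least 50 FPKM that were called lower. Of 76 mitochondrial ribosomal protein genes, which serve the translation of the mitochondrially encoded subunits, 58 fell and none rose, with a median log2 change of -0.77. The largest falls were in Mrpl20 (152 ± 46.6 to 43.3 ± 6.92 FPKM, SD, n = 4 each), Mrpl12 and Mrpl52. Of 17 carriers, chaperones and coupling genes kept, which include Cox7a2l of complex IV, 13 fell and none rose. Cycs, the cytochrome c that links complexes III and IV, read 141, 85.1, 150 and 165 FPKM and then 17.3, 28.4, 28.7 and 34.3, a log2 change of -2.27 ± 0.23 (limma adjusted p = 0.00094). That was a larger fall than in any of the 81 subunit genes. Hspd1, the matrix chaperonin, and Ndufab1, the acyl carrier protein within complex I, fell by 1.64 and 1.34.

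The shares called lower in the next 3 lists were smaller than in the lists above, though still above the 17.7% of all genes. Of 36 assembly factors, 14 fell and 1 rose. Ndufaf2, an assembly factor of complex I, fell from 35.8 ± 7.45 to 13.9 ± 1.33 FPKM, and Sco2 and Cox16, both needed for complex IV, fell by 1.07 and 1.03 on the log2 scale. Surf1, another factor for complex IV, rose from 23.6 ± 5.67 to 38.9 ± 6.13 FPKM (limma adjusted p = 0.037). Of 18 genes of pyruvate oxidation and the citric acid cycle, 7 fell, led by Pdhb (-1.34), Dlat (-1.22) and Mdh2 (-1.21), and 2 rose. The risers were Pcx, pyruvate carboxylase, from 1.27 ± 0.553 to 10.9 ± 1.55 FPKM, and Idh2, from 144 ± 48.8 to 240 ± 46.2 FPKM. Of 18 regulators of mitochondrial biogenesis 5 fell, among them Pprc1 (-1.29), the polymerase Polrmt (-0.70) and Yy1 (-0.61). Ppargc1a, the coactivator known for inducing respiratory genes, read 3.22, 7.69, 4.46 and 12.6 FPKM and then 11.4, 16.9, 11.4 and 13.1, an estimate of 0.96 ± 0.33 (limma adjusted p = 0.0515), a positive value where most subunit genes were negative, named here after its values were seen.

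Markers of dividing cells fell with the subunit genes. Summed FPKM of Mki67, Top2a, Ccnb1, Mcm2 and Mcm5 was 458, 201, 496 and 291 in the proliferating libraries and 11.5, 8.14, 38.6 and 7.28 in the differentiating ones, and all 5 of 5 genes fell. GFP had the lowest sum of the proliferating libraries, and it was also the lowest of the 4 in 46 of the 81 subunit genes. That rank was not counted over all genes. Among 8 progenitor markers, 1 fell and 1 rose. Of 6 astrocyte markers, 3 rose, and their sum was 81.6 to 308 FPKM in the proliferating and 172 to 805 in the differentiating libraries. Of 5 oligodendrocyte markers 2 were kept and 1 rose, and their sum was 0.801 to 1.16 FPKM in the proliferating and 2.80 to 24.3 in the differentiating libraries. Of 6 neuronal markers 2 were kept, Tubb3 and Map2, and 1 rose. Tubb3 reached 1 FPKM only in GFP-D and FUBP1-D, so it was kept through the differentiating state alone. The part of these markers in the subunit result was not tested.

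The direction was shared by the 3 arms. Both NT differentiating libraries lay below both NT proliferating ones in 66 of the 81 genes, against 28.4% of all genes. FUBP1-D lay below FUBP1 in 74, against 45.8%, and CIC-D lay below CIC in 70, against 45.5%. All 3 held at once in 64 of the 81 genes and in 22.9% of all genes. The median log2 difference was -0.73 in NT, -0.73 between the libraries labelled FUBP1 and -0.64 between those labelled CIC. Tested in the NT libraries alone, with the spread from the NT pairs, limma called 0 of the 81 genes, and the smallest adjusted p was 0.067. An unadjusted p under 0.05 was found in 38 of the 81 and in 26.1% of all genes. The estimate was negative in 74 of the 81 and in 5519 of all 11968 genes. Of all genes kept, 0.886% were called lower in that comparison. Its smallest p-values were in Cox7b (-1.31 ± 0.25), Cox7a2 (-1.28 ± 0.25) and Uqcrq (-1.91 ± 0.38).

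The libraries labelled FUBP1 showed little difference from NT in these genes. Limma called 0 of the 81 genes, as it called 0% of all genes kept, and 1 of the 81 had an unadjusted p under 0.05, against 2.14% of all genes. The median estimate was 0.08, against 0.02 for all genes. That 1 gene was Cox8b, the muscle isoform, which read 0.187, 0, 0.783 and 2.34 FPKM and then 0, 0, 1.23 and 0.695. Its values lay at or under 2.34 FPKM throughout, and the estimate was 0.93 ± 0.32 (limma adjusted p = 0.999). Cox8b reached 1 FPKM only in CIC and FUBP1-D, so it was kept through hairpin libraries alone. Its position above NT is therefore not independent of the filter, here or in the library comparisons below. Uqcrc2 (-0.39 ± 0.19) and Ndufc1 (0.31 ± 0.18) followed with the next smallest p-values.

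Library by library, FUBP1 lay above both NT libraries of its state by more than 0.5 log2 units in 1 gene (Cox8b) and below both in 1 (Uqcrc2), where 2.96% and 1.87% of all genes did so. FUBP1-D lay above in 1 gene (Cox8b) and below in 0, against 4.67% and 4.55% of all genes. By any margin, a count added after the data were seen, FUBP1 was above both NT libraries in 31 of 81 genes and FUBP1-D in 32, against 26.7% and 34.9% of all genes. No gene was called for a difference of the FUBP1 estimate between the states, among the 81 or among all genes (0%), and 0 of the 81 had an unadjusted p under 0.05, against 0.827% of all genes. Cox8a (-0.57 ± 0.49), Cox6a1 (-0.47 ± 0.47) and Ndufa1 (0.46 ± 0.48) had the smallest p-values there.

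The libraries labelled CIC read higher than NT in most subunit genes, but no single gene passed the test. Limma called 0 of the 81 genes in the CIC comparison, where 0.109% of all genes were called, and 14 of the 81 had an unadjusted p under 0.05, against 11.4% of all genes. The estimate was positive in 63 of the 81 genes, against 5461 of 11968 over all genes, with a median of 0.24 against -0.04. Among the 1866 genes with a mean of at least 50 FPKM, 990 were positive, with a median of 0.03. Of the 73 subunit genes at that level, 59 were positive, with a median of 0.24. The complex medians were 0.30 in complex I, 0.22 in II, 0.17 in III, 0.27 in IV and 0.14 in V. By any margin, CIC-D was above both NT libraries in 65 of 81 genes, against 30.8% of all genes, and CIC was above both in 46, against 31.4%. CIC-D was the highest differentiating library in 56 of the 81 genes, and CIC the highest proliferating one in 44, ranks that were not counted over all genes.

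**Figure D5:**
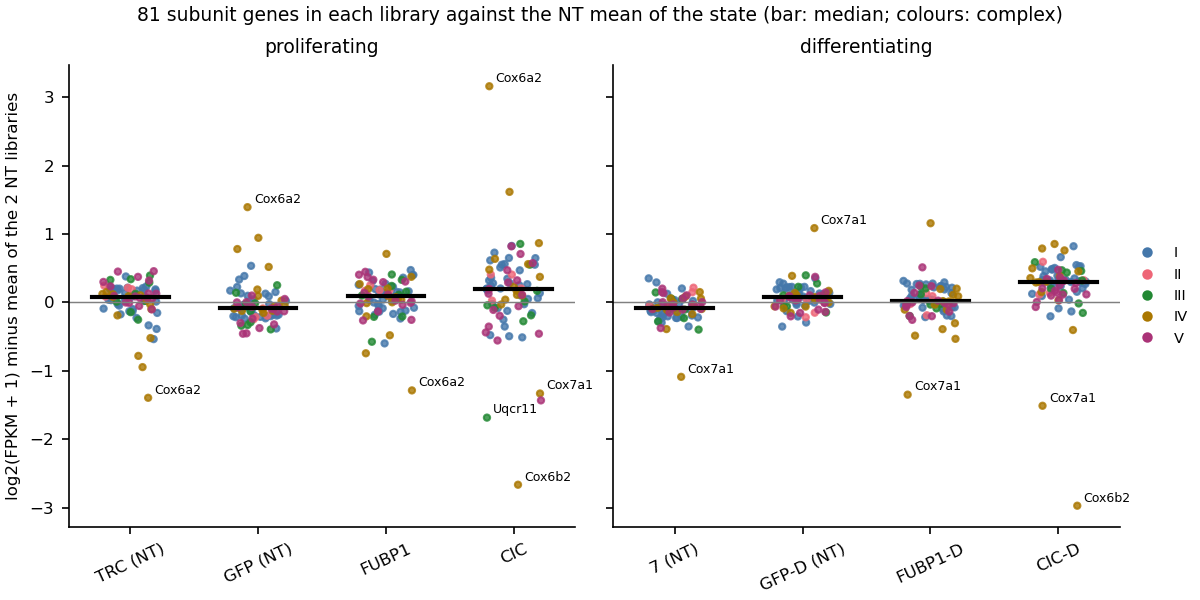
Log2(FPKM + 1) of the 81 subunit genes in each library minus the mean of the NT libraries of its state (vertical axis), by library (horizontal axis), with points coloured by complex, spread sideways at random, and bars at the median. The NT libraries mirror each other by construction. The CIC-D bar lies highest of the differentiating libraries, and Cox6b2 lies far below 0 in CIC and CIC-D.

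The smallest p in the CIC comparison was that of Cox6b2 (chr7:4703395-4704696 on mm9). It read 2.69, 9.90, 2.79 and 0 FPKM and then 9.24, 10.04, 6.60 and 0.355, so that both libraries labelled CIC were below all 6 others. The estimate was -2.82 ± 0.42 (limma adjusted p = 0.106). It passed the threshold with a pseudocount of 0.1 (adjusted p = 0.0161) and without TRC (adjusted p = 0.0252), and adjusted p reached 0.57 over 16 alternatives. Cox6b2 is listed at 0 in CIC, which in a table without counts can be a failed estimate. Its paralogue Cox6b1 stood at 601 and 454 FPKM in the same libraries, within or just above the range of the others.

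Cox8b (1.19 ± 0.32, limma adjusted p = 0.284) and Cox6a1 (0.71 ± 0.21, limma adjusted p = 0.313) followed. Cox8b was kept only through CIC and FUBP1-D, so its values above NT are not independent of the filter. Cox6a1, the ubiquitous isoform, read 546, 567, 587 and 866 FPKM and then 310, 359, 254 and 577. CIC and CIC-D were the highest library of their state, and CIC-D overlapped the proliferating range. By the margin of 0.5 log2 units, CIC was above both NT libraries in 11 genes and below both in 3, against 10.5% and 15.8% of all genes. The 5 farthest above were Cox6a2 (24.3 FPKM), Cox8b (2.34), Ndufs4 (88.0), Cox5a (807) and Ndufs3 (219), and the 3 below were Cox6b2, Uqcr11 (145) and Atp5sl (1.27). Cox6a2, the muscle isoform, read 0.0764, 6.43, 0.160 and 24.3 FPKM and then 0.104, 0.893, 0 and 0.478. The NT libraries of the proliferating state themselves thus lay far apart. GFP, CIC, GFP-D and CIC-D all lay above TRC, FUBP1, 7 and FUBP1-D. Prom1, a progenitor marker picked after its values were seen, split the same sets the other way. It read 3.61, 0.0376, 2.62 and 0 FPKM and then 17.5, 0.277, 19.5 and 0.0114. FUBP1 and CIC libraries stood in different sets and NT libraries in both. A hairpin difference from NT can thus include this split, whose cause was not tested. CIC-D was above by that margin in 5 genes, against 4.28% of all genes, and below in 1 (Cox6b2), against 5.92%. The 5 were Cox8a (630 FPKM), Cox8b (0.695), Cox6a1 (577), Sdhb (149) and Ndufb2 (75.3).

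No gene was called for a difference of the CIC estimate between the states, among the 81 or among all genes (0%), and 2 of the 81 had an unadjusted p under 0.05, against 4.28% of all genes. These were Uqcr11 (1.82 ± 0.64, limma adjusted p = 0.998) and Atp5sl (1.44 ± 0.55, limma adjusted p = 0.998), both at their lowest in CIC. Cox6a2 (-3.13 ± 1.64), at its highest in CIC, had the next smallest p. In each of the lists of mitochondrial genes above, limma called 0 genes in the FUBP1 and 0 in the CIC comparison, while 0 to 4 genes of a list had an unadjusted p under 0.05. The levels of astrocyte and dividing-cell markers also differed between the single libraries. The astrocyte sum of each state was lowest in CIC (81.6 FPKM) and CIC-D (172), but the single markers did not all follow it. Gfap (2.29 and 5.10) and Aldh1l1 (3.28 and 17.6) were lowest there, while S100b (9.16 and 2.08) was highest. Slc1a2 was highest of the proliferating libraries in CIC (8.50). The part of astrocyte and dividing-cell markers in the CIC values was not tested.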

How the data were processed

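RNA-seq of 8 libraries was used as the FPKM table that the authors deposited, 1 value per gene and library. The submitters' processing notes name bcl2fastq 2.17, cutadapt, TopHat2 2.0.11, Cufflinks 2.1.1 and mm9. How reads shared with pseudogenes or overlapping genes were assigned is not given in the sources used here. The loci of 7 of the 81 genes overlap another gene of the table (Ndufa2, Ndufb11, Ndufa13, Uqcrc2, Cox6a2, Atp5f1 and Atp5j). Depth is unknown, so no counting error is given.

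The members and gene lists were chosen with earlier results of these data known. Values were tested as log2(FPKM + 1) with limma 3.58.1 (R 4.3.3, empirical Bayes with a trend, two-sided) on the 11968 rows that reached 1 FPKM in at least 2 libraries, with Benjamini-Hochberg adjustment over all of them and a threshold of 0.05. A fold on this scale understates the change of low genes. State and hairpin target were additive terms over the 8 libraries (4 residual degrees of freedom). Differences between states of a hairpin effect, and the NT comparison, used 6 group means (2 residual degrees of freedom, from the NT pairs, so single libraries are assumed to vary like NT). The fit was tested on simulated data.

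Named genes were core subunits, paralogue sets, up to 3 largest called changes per complex and direction, the 3 smallest p-values of a comparison without calls, up to 5 genes per hairpin library farthest outside both NT libraries, and up to 3 genes per list and direction. 1 gene of the counted set is not reported here by name. Alternatives were other pseudocounts, filters, scalings and models, and leaving out each library. Motifs were searched with Python 3.11.15.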

Additional observations from a re-analysis of the deposited data

Results flagged for a closer look

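In each state the 4 values of the 47 named genes and of the 5 complex averages were checked for 1 library far from the other 3 by Dixon's criterion, and 10 of 104 such groups passed it. Chance passes about 1 in 20, but some of these genes were named for values far from NT, so the count is not set against that rate. Among the proliferating libraries, GFP was low for Atp5b (1020 FPKM against 1900 to 2080), Atp5g3 (560 against 940 to 1010) and Ndufb5 (93.8 against 119 to 124). CIC was high for Atp5g2 (695 against 565 to 574) and Cox6a1 (866 against 546 to 587), and low for Atp5sl (1.27 against 4.59 to 5.57). FUBP1 was low for Uqcrc2 (117 against 165 to 177). Among the differentiating libraries, GFP-D was high for Cox7a1 (45.1 against 6.61 to 9.20) and low for Uqcrfs1 (66.7 against 82.0 to 85.4), and CIC-D was high for Atp5o (284 against 245 to 250).

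Uqcr11 was higher in CIC-D than in CIC by 0.929 on the log2 scale, while both NT differentiating libraries were below both NT proliferating ones. The limma test of that difference between arms gave an estimate of 1.82 with an unadjusted p of 0.0325 and an adjusted p of 0.998.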

How the results depend on the processing

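The median change of the 81 genes between the states stayed negative in all 18 alternatives, from -0.81 (median-of-ratios rescaling) to -0.41 (quantile normalization). The number called lower was 25 with quantile normalization (18.5% of all genes), 30 with 6 group means (11.1%), 34 with a replicate block for libraries that share a name (13.1%, TRC and 7 left out) and 29 to 51 without 1 library. The lowest of these, 29, came without FUBP1 (9.66%) or FUBP1-D (9.75%), against 17.7% of all genes in the additive fit. Of the 25, all were among the 53. No paired analysis by replicate number was possible because the labels number no libraries across groups. The number called higher was 1 with a pseudocount of 0.1, without a filter, with median-of-ratios rescaling and with state alone, and 1 to 4 without 1 library. The 4, without GFP, were Atp5s, Atp5sl, Ndufa6 and Cox6b2. Under quantile normalization the complex means differed by -0.337 (I), -0.280 (II), -0.520 (III), -0.341 (IV) and -0.292 (V). Of the 81 estimates 10 changed sign there, 2 of them of genes called before, and those of named genes were Atp5a1 (0.22), Cox4i1 (0.41), Cox6b1 (0.17), Ndufs7 (0.080), Sdhc (0.17) and Uqcr11 (0.061). Ndufs7 also changed sign under the replicate block (0.038), Sdhc without FUBP1 or FUBP1-D (-0.126 to 0.042 without 1 library) and Cox8b without CIC-D (-0.41 to 0.025 without 1 library). Calls of 15 named genes lower (Atp5g1, Atp5l, Atp5o, Cox5a, Cox5b, Cox7a2, Cox7b, Ndufb2, Ndufb5, Ndufc1, Ndufs3, Ndufv2, Sdhd, Uqcrfs1 and Uqcrq) and of Atp5s higher held in all 18. In the CIC comparison 1 gene, Cox6b2, was called lower with a pseudocount of 0.1, and 0 to 1 without 1 library (1 without TRC). The cause was not tested.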

Other observations

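Levels within a complex were far from even, although most of its subunits are present in equal number. In the proliferating libraries complex I ran from Ndufa11 (18.9 ± 0.505 FPKM, SD, n = 4) to Ndufa4 (477 ± 74.8), with Ndufs4, an accessory subunit, at 58.9 ± 19.4. Complex III ran from Uqcrfs1 (150 ± 18.2) to Uqcrh (539 ± 71.8), and complex II only from Sdhc (142 ± 12.7) to Sdhd (186 ± 27.0). In the differentiating libraries the order within complex II was turned around, with Sdhc highest (138 ± 17.4) and Sdhd lowest (87.4 ± 14.6), and the ranges of these 2 genes did not overlap there. The 81 genes lay on 19 chromosomes.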
